A study of Homo sapiens with 24 samples.

Results

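The genes described here encode the sensors of the unfolded protein response (UPR) that sit in the membrane of the endoplasmic reticulum (ER), outside the PERK branch. Also included are the transcription factor XBP1, the proteases that activate ATF6, and membrane-bound transcription factors that are released from the ER in a related way. The genes are ERN1, XBP1, ATF6, ATF6B, MBTPS1, MBTPS2, CREB3, CREB3L1, CREB3L2 and CREB3L3. They were taken by gene name from the count matrix, where they are 10 of 18915 genes. All 10 have a row, and 9 of the 10 passed the filter on low counts, which kept 12685 genes. CREB3L1 did not pass.

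The libraries come from HepG2, an established human hepatoma cell line, so every value below is from cells of a single line grown in culture. Cells were treated for 10 h with the vehicle DMSO, with ISRIB (50 nM), with nelfinavir (20 µM), with bortezomib (50 nM), with bortezomib (50 nM) and nelfinavir (20 µM) together, or with bortezomib (50 nM) and ISRIB (50 nM) together. Bortezomib inhibits the proteasome. Nelfinavir, a drug made against the HIV protease, was used to raise phosphorylated eIF2α and is also known as an inhibitor of the site-2 protease that MBTPS2 encodes, and ISRIB makes translation insensitive to phosphorylated eIF2α. Each of the 6 conditions was sequenced as 4 libraries, named in the labels as biological replicates, 24 in all. Each drug alone is compared here with DMSO, and each combination with bortezomib alone.

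As background, ER stress is detected by proteins that span the ER membrane. IRE1α, encoded by ERN1, is a kinase and endoribonuclease that removes a short intron from XBP1 mRNA in the cytoplasm, and the spliced mRNA encodes the active transcription factor XBP1. ATF6 and its relative ATF6B travel to the Golgi, where the site-1 protease (MBTPS1) and the site-2 protease (MBTPS2) release their transcription factor part, and the CREB3 family is cut by the same enzymes. CREB3L3, also called CREBH, is known for its role in liver, where it acts on acute-phase and lipid metabolism genes.

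The intron of XBP1 carries the signal of the IRE1α branch, and its position decides what these libraries can show. The stretch below is from exon 4 of 5 of XBP1, in the coding region, at chr22:29192084-29192173 of GRCh37 on the minus strand, with the 26 bases of the intron (chr22:29192116-29192141) in capitals.
XBP1 intron and flanks: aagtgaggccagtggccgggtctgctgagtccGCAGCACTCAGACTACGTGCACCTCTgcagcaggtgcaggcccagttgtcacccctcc
The annotated boundaries can be moved by up to 6 bases to the right with the same spliced product. The intron ends 1259 bases from the 3′ end of the 1850-base transcript. The libraries were primed at the poly(A) tail, so their tags lie toward the 3′ end of a transcript. The XBP1 counts below are therefore the sum of spliced and unspliced mRNA, and splicing was not measured. No count below is a measure of IRE1α activity, of cleavage of ATF6 or of cleavage of a CREB3 family protein.

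Upstream sequence was looked at for the members whose mRNA moved apart from the others, XBP1, CREB3L2 and CREB3L3. All 10 members have an entry in the RefSeq promoter table, and the windows were placed on GRCh37 by exact match. The stretches shown lie upstream of the annotated gene, and the capitals mark the ERSE in XBP1 and the cyclic AMP response element in CREB3L2, both described below, while CCAAT boxes outside them are left in lower case and CREB3L3 has no capitals. XBP1 is shown from position −250 to −29 counted from the RefSeq start (chr22:29196586-29196807, minus strand), CREB3L2 from −250 to −1 (chr7:137686833-137687082, minus strand) and CREB3L3 from −250 to −1 (chr19:4153378-4153627, plus strand).
XBP1: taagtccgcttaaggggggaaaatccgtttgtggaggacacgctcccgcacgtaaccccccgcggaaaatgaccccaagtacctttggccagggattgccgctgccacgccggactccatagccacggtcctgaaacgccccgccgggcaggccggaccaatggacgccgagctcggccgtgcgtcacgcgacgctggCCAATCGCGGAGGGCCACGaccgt
CREB3L2: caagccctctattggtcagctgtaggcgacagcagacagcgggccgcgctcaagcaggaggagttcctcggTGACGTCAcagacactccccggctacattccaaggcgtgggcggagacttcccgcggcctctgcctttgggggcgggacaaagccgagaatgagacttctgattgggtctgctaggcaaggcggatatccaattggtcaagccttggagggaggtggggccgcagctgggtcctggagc
CREB3L3: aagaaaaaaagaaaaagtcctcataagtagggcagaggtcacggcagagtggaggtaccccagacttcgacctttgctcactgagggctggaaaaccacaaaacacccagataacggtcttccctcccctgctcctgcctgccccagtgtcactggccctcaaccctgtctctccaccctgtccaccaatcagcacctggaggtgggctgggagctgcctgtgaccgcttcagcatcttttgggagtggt

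The XBP1 window holds the ER stress response element (ERSE), CCAAT and CCACG with 9 bases between them, at positions −52 to −34 counted from the start. ATF6 is known to act through this element together with the CCAAT-binding factor NF-Y. The element was found, on either strand, in 22 of 27305 RefSeq promoter windows of the same length (0.0806%), which reach from 250 bases before to 50 bases after a start. The CREB3L2 window holds the cyclic AMP response element TGACGTCA at positions −179 to −172 counted from the start, a palindrome that matches on both strands and that 1.98% of all windows hold. Neither the ERSE-II element (ATTGG and CCACG with 1 base between them, in 0.0549% of windows), nor the UPR element core TGACGTGG (0.795%), nor the C/EBP-ATF site TGATGNAAT (1.02%) was found in the window of any of the 10 members. For ERN1 and CREB3L1 the window lies inside the annotated gene, so sequence upstream of these annotated genes was not searched. The CCAAT box alone, which is part of the ERSE, was present in the windows of ERN1, XBP1, ATF6B, CREB3L2 and CREB3L3 and in 35.7% of all windows. CREB3L3 held no other motif of those searched. A match is a description of the sequence and says nothing of binding in these cells.

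Levels are given as CPM, counts of a gene per 1000000 counts of its library after TMM scaling, which sets the libraries to a common level over most genes, and values with ± are SD over the 4 libraries of a condition unless SE is written. Changes are log2 fold changes with their SE from edgeR's quasi-likelihood test on the counts of all 24 libraries, and a gene is said to have risen or fallen where its p, adjusted by the Benjamini-Hochberg method over the 12685 genes, is under 0.05. With tags from the 3′ end, levels were not compared between genes.

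Total counts per library ran from 5154533 to 6943164. Counts of mitochondrially encoded genes made up 21.5% ± 1.32 of a library in DMSO and 33.8% ± 1.20 in bortezomib, and 27.2% ± 2.26 where nelfinavir and 36.1% ± 3.13 where ISRIB had been added to bortezomib. When libraries were scaled by their totals alone, the median log2 change of all genes between bortezomib and DMSO became −0.495, with 1490 genes called higher and 6266 lower against 3498 and 3275 with TMM, so the changes below are relative to the bulk of genes. All 12 hepatocyte and hepatoma markers, among them ALB and HNF4A, passed the filter, and their summed level ranged over the libraries from 15283 to 16959 CPM in DMSO, from 11532 to 12117 CPM in bortezomib, from 8056 to 9936 CPM with added nelfinavir and from 11109 to 12856 CPM with added ISRIB. Of 10 markers of other cell types, 5 have a row in the table and 1 passed the filter, and their summed level was 0.938 to 5.86 CPM.

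Bortezomib alone raised the mRNA of the ER stress sensors and lowered that of CREB3L2 and CREB3L3. Of the 9 members tested, 5 rose (ERN1, ATF6, ATF6B, MBTPS1 and CREB3) and 2 fell (CREB3L2 and CREB3L3), where 27.6% of all genes tested were called higher and 25.8% lower. XBP1 and MBTPS2 did not pass the test. The libraries of the groups did not overlap for 7 of the 9 members, and for 50% of all genes tested. The median log2 change over the 9 members was 0.56, against 0.00 over all genes tested.

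ERN1, at chr17:62116440-62208179 of GRCh37, had the largest fold change of the members. Its level was 7.79, 9.76, 11.9 and 9.19 CPM in the 4 DMSO libraries and 28.9, 30.3, 29.2 and 41.7 CPM in the 4 bortezomib libraries. Every bortezomib library was above every DMSO library. The mean rose 3.37-fold, with a log2 change of 1.75 (SE 0.20, adjusted p = 5.86e-09 by edgeR). Raw counts were modest, at 67 to 85 per DMSO library and 135 to 193 per bortezomib library.

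ATF6, at chr1:161736088-161947364, rose by a similar factor. It stood at 35.3, 27.7, 35.1 and 32 CPM in DMSO and at 102, 107, 96.5 and 89.9 CPM in bortezomib, with no overlap. The log2 change was 1.60 (SE 0.12, adjusted p = 4.37e-13 by edgeR), a 3.03-fold rise. ATF6B, at chr6:32083041-32096030, is known as a weaker activator than ATF6 and had the lowest counts of the tested members, between 28 and 83 in any library. It rose from 5.71 ± 1.38 to 10.6 ± 2.06 CPM, a log2 change of 0.88 (SE 0.26, adjusted p = 0.00459 by edgeR). The last bases of ATF6B overlap the annotated span of TNXB on the same strand, and how reads in such a stretch were assigned is not given in the sources used here.

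XBP1, at chr22:29190543-29196585, did not rise with ERN1. Its level was 95.1, 98.9, 116 and 123 CPM in DMSO and 100, 93.9, 91.7 and 89.9 CPM in bortezomib, and the groups overlap. The log2 change was −0.20 (SE 0.10, adjusted p = 0.0974 by edgeR). XBP1 was called lower under 10 of 17 alternative settings, with the log2 change between −0.70 and −0.14 over all 17. Among them, DESeq2 gave an adjusted p of 0.0389, and leaving out bortezomib replicate 1, DMSO replicate 1 or DMSO replicate 2 gave adjusted p values from 0.0286 to 0.0465.

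The 2 proteases that activate ATF6 did not move together. MBTPS1, the site-1 protease at chr16:84087366-84150547, was at 60.8, 55.1, 53.7 and 50.7 CPM in DMSO and at 77.9, 79.3, 81.7 and 86.0 CPM in bortezomib. The bortezomib libraries were all above, with a log2 change of 0.56 (SE 0.10, adjusted p = 2.54e-05 by edgeR). MBTPS2, the site-2 protease at chrX:21857735-21903541, was at 14.7 ± 1.35 CPM in DMSO and 14.2 ± 0.916 CPM in bortezomib, a log2 change of −0.05 (SE 0.17, adjusted p = 0.841 by edgeR).

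In the CREB3 family, the members moved in opposite directions. CREB3, at chr9:35732595-35736996, rose from 21.5 ± 1.86 to 33.0 ± 4.34 CPM, a log2 change of 0.62 (SE 0.13, adjusted p = 0.000218 by edgeR). The last 134 bases of its transcript overlap GBA2 on the opposite strand, and without a stated strand setting reads of that stretch cannot be told apart. CREB3L2, at chr7:137559725-137686832, known for its role in the secretory pathway of cartilage, was at 123, 116, 116 and 125 CPM in DMSO and at 50.7, 55.5, 39.3 and 48.4 CPM in bortezomib. Its 2.47-fold fall was the largest decrease among the members, with a log2 change of −1.31 (SE 0.11, adjusted p = 2.97e-12 by edgeR). CREB3L3, at chr19:4153628-4173051, was at 57.1, 60.3, 41.0 and 48.4 CPM in DMSO and at 23.7, 26, 20.7 and 22.5 CPM in bortezomib, a log2 change of −1.15 (SE 0.16, adjusted p = 1.40e-07 by edgeR). For both, every bortezomib library was below every DMSO library. CREB3L1, at chr11:46299213-46342959, also called OASIS and known from astrocytes and bone, had 1 count in all 24 libraries together, in replicate 4 of bortezomib with nelfinavir, and 0 in the other 23. A count of 0 allows up to 3 counts per library, or 0.432 to 0.582 CPM at these library totals without TMM scaling, and this covers counting error only.

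The calls of ERN1, ATF6, CREB3L2 and CREB3L3 did not depend on the scaling, whereas 3 of the smaller rises did. With library totals alone the log2 changes of MBTPS1 (0.06, adjusted p = 0.667), CREB3 (0.12, adjusted p = 0.472) and ATF6B (0.39, adjusted p = 0.202) in edgeR's test no longer passed, while XBP1 (−0.70, adjusted p = 6.81e-07) and MBTPS2 (−0.54, adjusted p = 0.00706) were called lower. Set against the median of all genes under that scaling, the log2 changes were 0.56 for MBTPS1, 0.62 for CREB3, 0.88 for ATF6B, −0.20 for XBP1 and −0.05 for MBTPS2. Taking off the median centres the changes on the bulk of genes, much as TMM does. The closeness of these values to those with TMM is therefore no separate support for the calls.

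**Figure D1:**
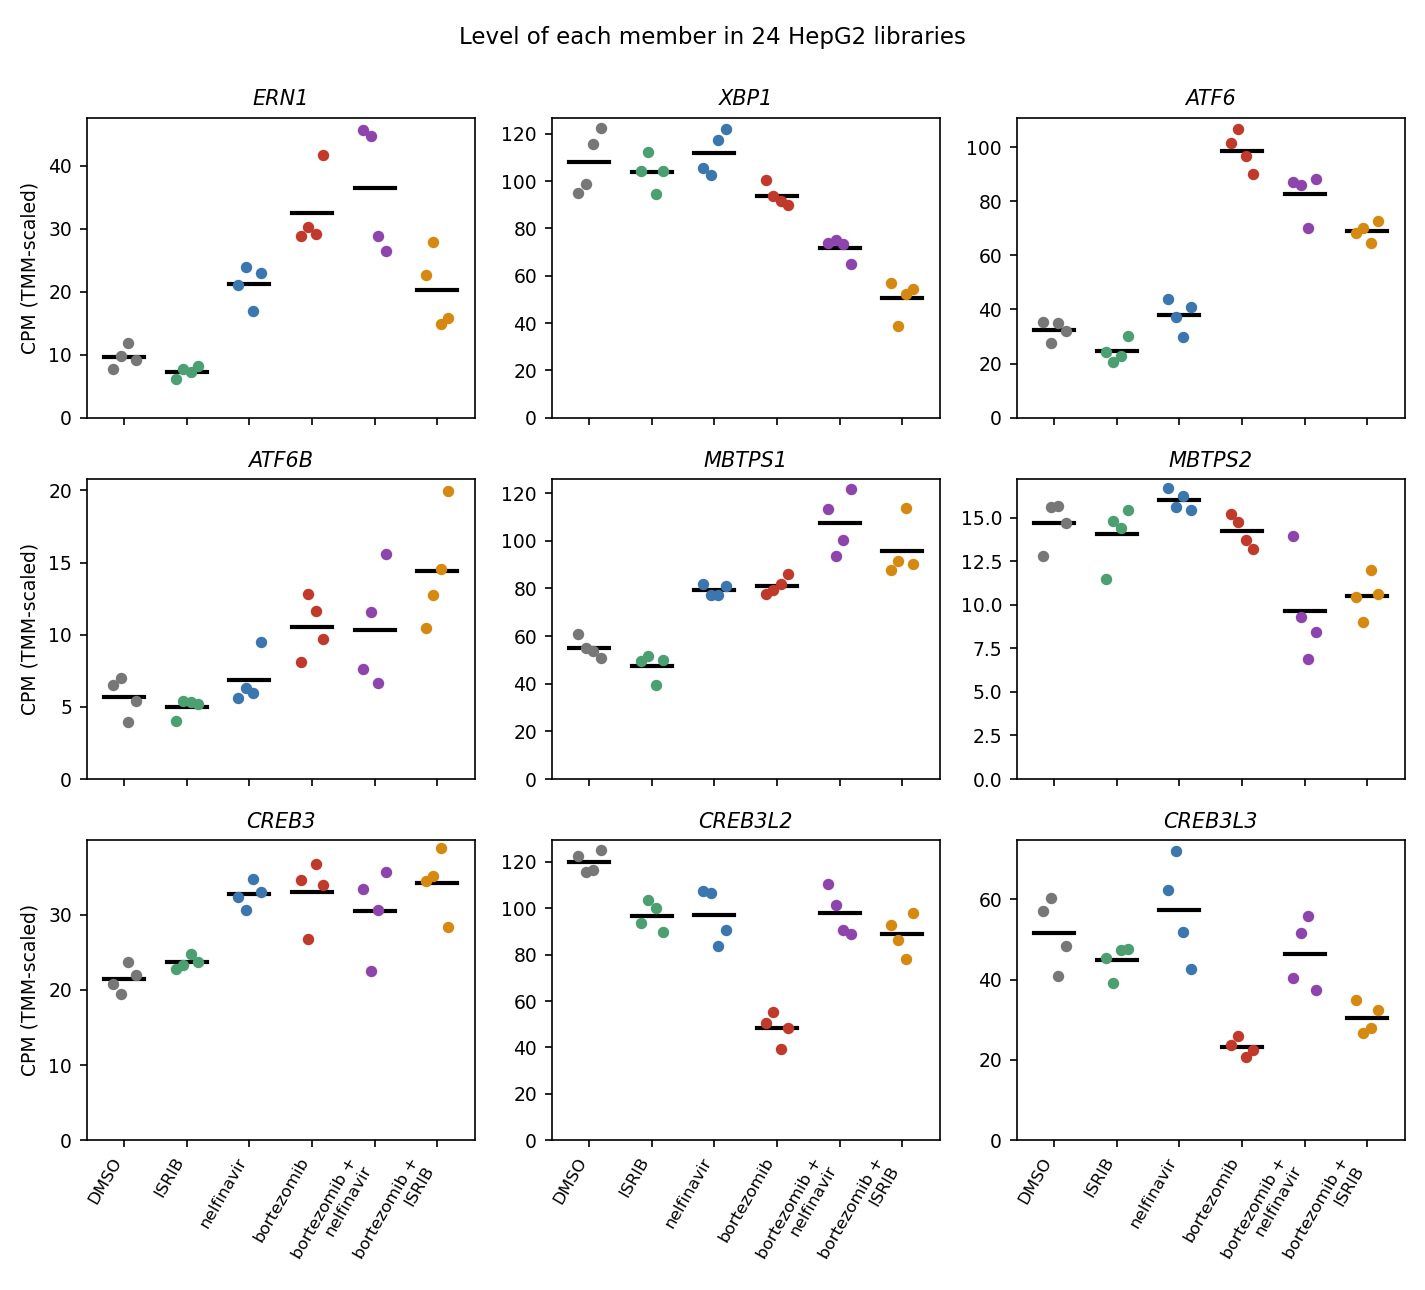
TMM-scaled CPM (y axis, from 0) of the 9 members that passed the filter in each of the 24 libraries, by condition (x axis), with 1 point per library and a line at the mean of the 4 libraries. ATF6 stands highest in the 3 conditions with bortezomib, ERN1 in bortezomib alone and with nelfinavir, CREB3L2 and CREB3L3 are lowest in bortezomib alone, and XBP1 is lowest in bortezomib with ISRIB.

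Nelfinavir alone moved fewer members. Of the 9 tested, 3 rose (ERN1, MBTPS1 and CREB3) and 1 fell (CREB3L2), where 10.4% of all genes were called higher and 8.84% lower. These 4 had no overlap between the groups, as had 29.6% of all genes. ERN1 was at 21.1, 23.9, 17.0 and 23 CPM in the nelfinavir libraries, all above the highest DMSO library at 11.9 CPM, and rose 2.21-fold (log2 change 1.14, SE 0.20, adjusted p = 5.76e-05 by edgeR). MBTPS1 reached 79.3 ± 2.64 CPM (log2 change 0.53, SE 0.10, adjusted p = 0.000215 by edgeR) and CREB3 reached 32.7 ± 1.74 CPM (log2 change 0.61, SE 0.13, adjusted p = 0.000797 by edgeR). These mean levels of MBTPS1 and CREB3 lie next to those of bortezomib alone, at 81.2 ± 3.57 and 33.0 ± 4.34 CPM, and nelfinavir and bortezomib were not tested against each other. ATF6, which rose with bortezomib, was at 38.0 ± 5.96 CPM with nelfinavir, a log2 change of 0.22 (SE 0.12, adjusted p = 0.223 by edgeR). XBP1 was at 112 ± 9.29 CPM, a log2 change of 0.05 (SE 0.10, adjusted p = 0.799 by edgeR). CREB3L2 fell from 120 ± 4.67 to 97 ± 11.8 CPM (log2 change −0.30, SE 0.10, adjusted p = 0.029 by edgeR), a call lost without DMSO replicate 1 or 4 or nelfinavir replicate 3 or 4 (adjusted p from 0.0727 to 0.143).

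ISRIB alone changed none of the 9 members by edgeR's test, where 0% of all genes were called in either direction. At an unadjusted p under 0.05 edgeR had 703 genes of all tested and 3 of the members, and DESeq2 called 0 members. Those 3 were ATF6 at 24.6 ± 4.13 CPM (log2 change −0.40), CREB3L2 at 96.7 ± 6.28 CPM (log2 change −0.31) and MBTPS1 at 47.6 ± 5.65 CPM (log2 change −0.21). CREB3L2 was the 1 member without overlap, its ISRIB libraries all below the DMSO libraries, where 8.01% of all genes had none, and in a model of these 2 conditions alone its adjusted p was 0.0411. ERN1 was at 7.35 ± 0.889 CPM, a log2 change of −0.39 (SE 0.22, adjusted p = 0.973 by edgeR).

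Added to bortezomib, nelfinavir raised CREB3L2 and CREB3L3, the members that bortezomib had lowered, while XBP1 went down. Against bortezomib alone, 3 of 9 members rose (CREB3L2, CREB3L3 and MBTPS1) and 2 fell (XBP1 and MBTPS2), where 15.6% of all genes were called higher and 13.4% lower. No overlap was found for 5 of the 9, against 21.5% of all genes. CREB3L2 was at 111, 102, 90.8 and 88.8 CPM, all above the highest bortezomib library at 55.5 CPM, a log2 change of 1.01 (SE 0.11, adjusted p = 1.14e-08 by edgeR). CREB3L3 was at 40.4, 51.6, 55.8 and 37.5 CPM, again with no overlap with bortezomib alone, a log2 change of 0.99 (SE 0.16, adjusted p = 1.25e-05 by edgeR). MBTPS1 rose further, to 113, 93.6, 100 and 122 CPM (log2 change 0.40, SE 0.10, adjusted p = 0.0032 by edgeR). XBP1 was at 73.8, 74.9, 73.5 and 64.9 CPM, all below the lowest bortezomib library at 89.9 CPM, a log2 change of −0.39 (SE 0.11, adjusted p = 0.0054 by edgeR).

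ERN1 did not rise further with nelfinavir. Its 4 libraries stood in pairs, at 45.7 and 44.7 CPM in replicates 1 and 2 and at 28.9 and 26.5 CPM in replicates 3 and 4, and overlapped with bortezomib alone (log2 change 0.16, SE 0.19, adjusted p = 0.556 by edgeR). ATF6 was at 87.1, 86.1, 70.1 and 88.0 CPM, below every bortezomib library, but the log2 change of −0.25 (SE 0.12, adjusted p = 0.103 by edgeR) did not pass. MBTPS2 was at 14, 9.31, 6.88 and 8.45 CPM, and replicate 1 lay within the bortezomib range of 13.2 to 15.2 CPM. Its log2 change of −0.56 (SE 0.18, adjusted p = 0.0188 by edgeR) was no longer called without bortezomib replicate 1 or 2 or without replicate 2, 3 or 4 of the combination (adjusted p from 0.0525 to 0.114), with no filter (adjusted p = 0.0766) or in a model of the 2 conditions alone (adjusted p = 0.103). CREB3 and ATF6B, at 30.5 ± 5.75 and 10.4 ± 4.08 CPM, overlapped with bortezomib alone.

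Added to bortezomib, ISRIB raised CREB3L2 as well but lowered ERN1, ATF6 and XBP1. Of the 9 members, 1 rose (CREB3L2) and 3 fell (ERN1, XBP1 and ATF6), where 6.91% of all genes were called higher and 5.34% lower. With library totals alone the split of all calls in this comparison was 650 higher and 955 lower, against 876 and 677 with TMM, and the 4 calls of the members stood. CREB3L2 was at 92.6, 86.3, 78.1 and 97.8 CPM, all above bortezomib alone (log2 change 0.87, SE 0.11, adjusted p = 6.56e-07 by edgeR). XBP1 showed the largest fall, to 57.0, 39.0, 52.2 and 54.3 CPM, and every library was below every library of each other condition (log2 change −0.89, SE 0.11, adjusted p = 3.73e-07 by edgeR). ATF6 was at 68.1, 70.2, 64.6 and 72.6 CPM, below the lowest bortezomib library at 89.9 CPM (log2 change −0.52, SE 0.12, adjusted p = 0.00281 by edgeR).

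ERN1 with bortezomib and ISRIB was at 22.7, 27.9, 15 and 15.8 CPM, below all bortezomib libraries and above all DMSO libraries. The log2 change against bortezomib was −0.67 (SE 0.20, adjusted p = 0.0203 by edgeR), and it was not called without bortezomib replicate 4 (adjusted p = 0.0875), or without replicate 3 (adjusted p = 0.0654) or 4 (adjusted p = 0.0681) of the combination. CREB3L3 (30.5 ± 3.79 CPM) and MBTPS1 (95.9 ± 12.1 CPM) lay above, and MBTPS2 (10.5 ± 1.23 CPM) below, every bortezomib library, with log2 changes of 0.39, 0.24 and −0.43 and adjusted p of 0.117, 0.126 and 0.118 by edgeR. In all, 7 of the 9 members had no overlap with bortezomib alone, where 12.5% of all genes tested had none, and 4 of the 7 passed the test. ATF6B was at 10.5, 12.8, 14.5 and 20.0 CPM, the highest mean of any condition, but its log2 change of 0.44 (SE 0.25, adjusted p = 0.268 by edgeR) did not pass.

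**Figure D2:**
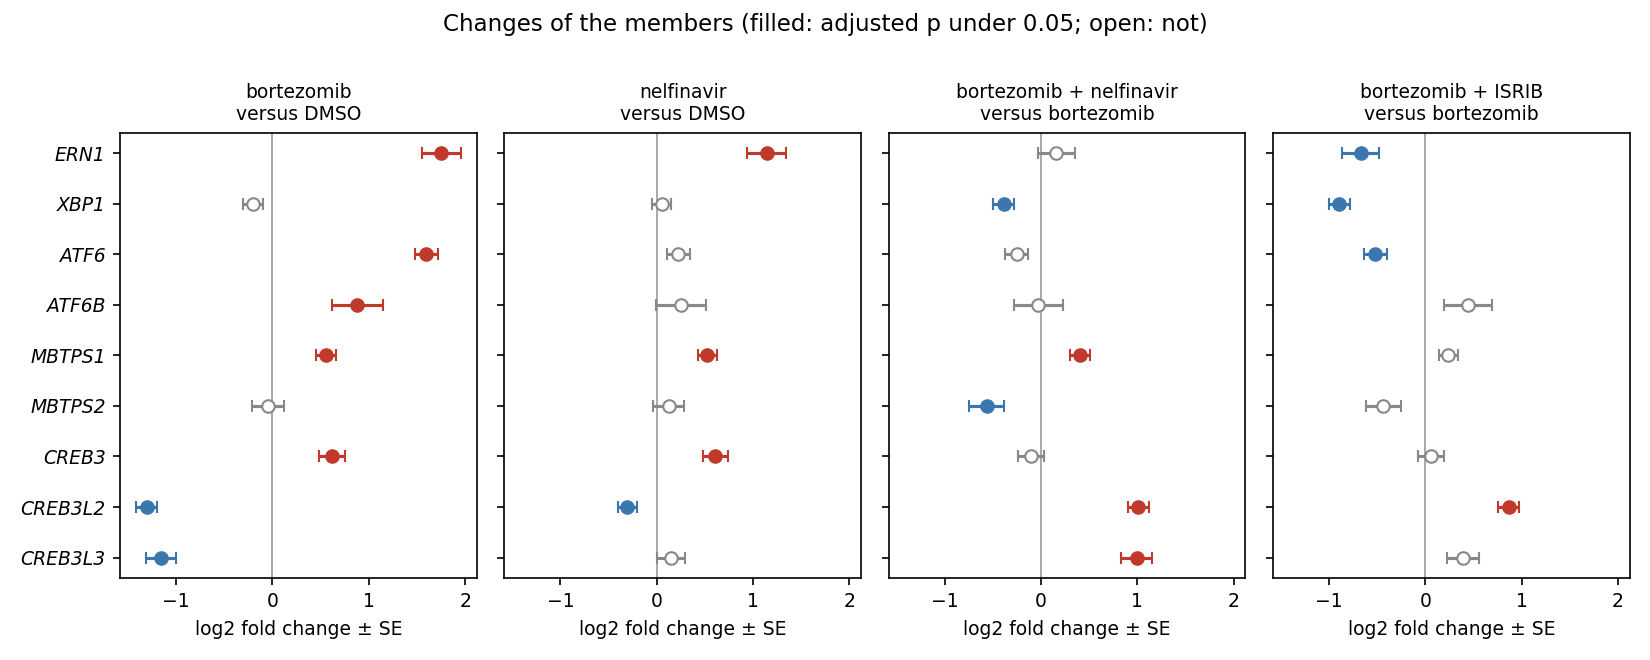
Log2 fold change with its SE (x axis) of the 9 tested members (y axis) in bortezomib or nelfinavir against DMSO and in each combination against bortezomib alone. Filled points passed the test (red higher, blue lower) and open points did not. CREB3L2 fell by 1.31 with bortezomib and was higher again by 1.01 with added nelfinavir and by 0.87 with added ISRIB, and with library totals alone as the scaling the points of MBTPS1, CREB3 and ATF6B in the bortezomib panel would be open and those of XBP1 and MBTPS2 filled.

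The combinations were also compared with each other. Against bortezomib with ISRIB, 3 of 9 members were higher with nelfinavir (ERN1, XBP1 and CREB3L3) and 0 lower, where 13.2% of all genes were called higher and 11.3% lower. The log2 difference was 0.83 (SE 0.20, adjusted p = 0.00175 by edgeR) for ERN1, whose libraries overlapped, 0.51 (SE 0.11, adjusted p = 0.000763 by edgeR) for XBP1 and 0.60 (SE 0.16, adjusted p = 0.00421 by edgeR) for CREB3L3, and XBP1 and CREB3L3 were the 2 members whose libraries did not overlap, against 18.3% of all genes. CREB3L2 did not pass (log2 difference 0.14, SE 0.11, adjusted p = 0.342 by edgeR). A single library moved 3 further members over the threshold. By edgeR, ATF6 was called without replicate 3 of bortezomib with nelfinavir (log2 difference 0.37, adjusted p = 0.0321), ATF6B without replicate 4 of that condition (log2 difference −0.71, adjusted p = 0.0473), and MBTPS1 without replicate 3 of bortezomib with ISRIB (log2 difference 0.30, adjusted p = 0.0349). The 3 comparisons of the bortezomib conditions share libraries, so their calls are not independent.

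Whether a drug acted on a gene differently in the presence of bortezomib was tested as an interaction, the log2 change on adding the drug to bortezomib minus that on adding it to DMSO. For nelfinavir, 7 of 9 members passed, 2 with a positive interaction (CREB3L2 and CREB3L3) and 5 with a negative one (ERN1, XBP1, ATF6, MBTPS2 and CREB3), where 9.74% of all genes were called positive and 10.0% negative. The interaction was 1.32 (SE 0.15, adjusted p = 3.85e-08 by edgeR) for CREB3L2 and 0.85 (SE 0.21, adjusted p = 0.00441 by edgeR) for CREB3L3 on the log2 scale. ERN1 rose by 1.14 with nelfinavir alone and had a log2 change of 0.16 on top of bortezomib, an interaction of −0.98 (SE 0.27, adjusted p = 0.0098 by edgeR). CREB3 had the same form, with log2 changes of 0.61 and −0.11 and an interaction of −0.71 (SE 0.19, adjusted p = 0.00622 by edgeR). These 4 interactions passed under all 25 alternatives.

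The other 3 interactions with nelfinavir were close to the threshold. They were −0.44 for XBP1 (SE 0.15, adjusted p = 0.0297 by edgeR), −0.48 for ATF6 (SE 0.17, adjusted p = 0.0429 by edgeR) and −0.69 for MBTPS2 (SE 0.24, adjusted p = 0.0427 by edgeR). Of the 16 settings that each left out 1 library of the 4 conditions involved, 12 ended the call of XBP1 (adjusted p from 0.0502 to 0.105), 13 that of ATF6 (0.0552 to 0.132) and 15 that of MBTPS2 (0.0511 to 0.135). Every one of the bortezomib libraries was among them for each of these genes.

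For ISRIB, 2 of 9 members passed the interaction test, where 2.93% of all genes were called positive and 1.89% negative. With library totals alone the split of all calls was 278 positive and 285 negative, against 372 and 240 with TMM, and these 2 members passed under both. The interaction was 1.18 for CREB3L2 (SE 0.15, adjusted p = 2.07e-06 by edgeR), whose log2 change was −0.31 on adding ISRIB to DMSO and 0.87 on adding it to bortezomib. It was −0.84 for XBP1 (SE 0.15, adjusted p = 0.000399 by edgeR), with log2 changes of −0.06 and −0.89. The interaction of MBTPS1 was 0.45 (SE 0.15, adjusted p = 0.0659 by edgeR) and did not pass. ERN1 and ATF6 fell when ISRIB was added to bortezomib, but their interactions of −0.28 (SE 0.29, adjusted p = 0.675 by edgeR) and −0.12 (SE 0.17, adjusted p = 0.79 by edgeR) did not pass, so a change with ISRIB that differs between the presence and absence of bortezomib was not shown for them.

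**Figure D3:**
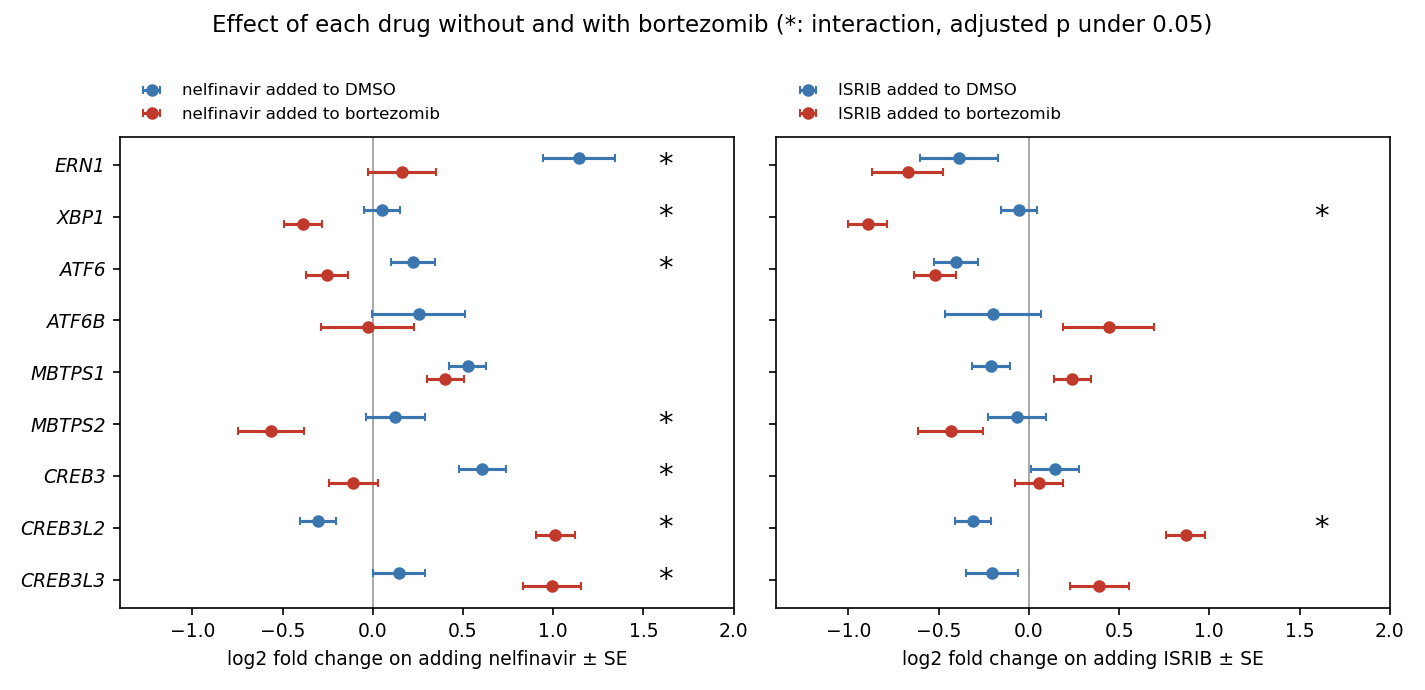
Log2 fold change with its SE (x axis) on adding nelfinavir (left) or ISRIB (right) to DMSO (blue) or to bortezomib (red), for the 9 tested members (y axis). An asterisk marks members whose interaction passed the test, 7 for nelfinavir and 2 for ISRIB, and CREB3L2 lies left of 0 in DMSO and right of 0 with bortezomib in both panels.

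The order of the 6 conditions differed between members. ERN1 spanned the widest range, 4.96-fold from ISRIB (7.35 CPM) to bortezomib with nelfinavir (36.4 CPM). In its order bortezomib alone overlapped with its combination with nelfinavir, nelfinavir alone with the combination of bortezomib and ISRIB, and DMSO with ISRIB, while bortezomib did not overlap with nelfinavir, its neighbour below, nor the combination with ISRIB with DMSO. ATF6 spanned 4.01-fold, from ISRIB (24.6 CPM) to bortezomib (98.6 CPM), and its 3 conditions with bortezomib all lay above the 3 without. XBP1 spanned 2.21-fold, with nelfinavir, DMSO, ISRIB and bortezomib overlapping in a row, and below them the combination with nelfinavir and then the one with ISRIB, each apart from its neighbour. CREB3L2 spanned 2.47-fold, with DMSO alone at the top, bortezomib alone at the bottom, and the other 4 conditions overlapping between 88.7 and 97.9 CPM. MBTPS2 and CREB3 were the flattest, at 1.66-fold and 1.59-fold, and every pair of neighbours in their orders overlapped.

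Over the 24 libraries, ERN1 and ATF6 had a Pearson correlation of 0.86 in log2 CPM, ERN1 and MBTPS1 0.82, and CREB3L2 and CREB3L3 0.80, whereas ERN1 and XBP1 had −0.37. These are descriptions across libraries that share treatments, and so no test is given. Among genes with a mean of at least 10 CPM, those most like ERN1 over the 24 libraries were RSL24D1 (r = 0.97), IFRD1 (0.95) and CCPG1 (0.94). Those most like ATF6 were EREG (0.99), SPTBN1 (0.97) and ASAP1 (0.97), and those most like XBP1 were AIMP2 (0.90), CCNB2 (0.89) and TXNIP (0.88). For CREB3L2 they were MLEC (0.90), FKBP2 (0.89) and AHR (0.87), and for CREB3L3 H2AFV (0.92), FOXA2 (0.89) and TCF7L2 (0.88). For MBTPS1 they were WIPI1 (0.96), IBTK (0.94) and PPAPDC1B (0.94), for MBTPS2 GPR56 (0.88), NUDT16 (0.87) and TMEM45B (0.86), for CREB3 RUNDC1 (0.87), TMBIM1 (0.87) and DHRS3 (0.85), and for ATF6B NEAT1 (0.90), DOCK5 (0.90) and ZNF234 (0.88).

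A ratio within a library does not depend on the scaling, and the ratio of ERN1 to XBP1 counts was computed after their values had been seen. On the log2 scale it was −3.49 ± 0.22 in DMSO, −3.83 ± 0.19 in ISRIB, −2.40 ± 0.29 in nelfinavir, and −1.55 ± 0.30 in bortezomib, and where nelfinavir or ISRIB was added to bortezomib it was −1.02 ± 0.35 and −1.35 ± 0.62. All libraries with bortezomib or nelfinavir lay above all libraries with DMSO or ISRIB only. The difference from DMSO was 1.94 for bortezomib and 1.09 for nelfinavir, given as a description with no test. In bortezomib with ISRIB both genes were lower than in bortezomib, and their ratio differed by 0.20. The log2 ratio of ATF6 to ATF6B counts, also computed after the values had been seen, was 2.54 ± 0.49 in DMSO, 3.24 ± 0.28 in bortezomib and 2.29 ± 0.37 in bortezomib with ISRIB. Every library of the combination lay below every library of bortezomib alone, a difference of −0.95 (two-sided exact permutation p = 0.0286, and 0.171 after adjustment).

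The genes that the released factors are known to activate were followed as lists. These and the later lists were written from general knowledge, but with earlier results of these data known. Their counts are therefore descriptions and not independent of these data. Of 11 tested ATF6 targets, 6 rose and 2 fell with bortezomib alone, with a median log2 change of 0.21, while with library totals alone 2 rose and 6 fell. With TMM, 27.6% of all genes tested were called higher and 25.8% lower. HYOU1, an ER chaperone, had a log2 change of 0.80, HERPUD1, a factor of ER-associated degradation, 1.38, HSPA5, the chaperone BiP, 0.55, and CRELD2, an ER-resident protein, −0.84. When nelfinavir or ISRIB was added to bortezomib, all 11 tested ATF6 targets rose, where 15.6% and 6.91% of all genes tested were called higher. Their median log2 changes were 1.4 and 1.33, against −0.02 and 0.01 over all genes tested. ATF6 mRNA itself had log2 changes of −0.25 and −0.52 in these comparisons. HSPA5 rose by 2.65 and 2.23 on the log2 scale, from 2130 ± 161 CPM in bortezomib to 13400 ± 2430 with nelfinavir and 10000 ± 1040 CPM with ISRIB.

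XBP1 targets behaved likewise while XBP1 mRNA fell. Of 20 tested, 10 rose and 4 fell with bortezomib (median log2 change 0.26, and 2 and 8 with library totals alone), and 9 rose and 0 fell with nelfinavir alone. Among all genes tested, bortezomib had 27.6% called higher and 25.8% lower, and nelfinavir 10.4% and 8.84%. With nelfinavir added to bortezomib, 16 rose and 0 fell (median log2 change 0.77), and with ISRIB added 15 rose and 0 fell (median log2 change 0.79). The shares of all genes tested were 15.6% higher and 13.4% lower with nelfinavir, and 6.91% and 5.34% with ISRIB. DNAJB11, an ER co-chaperone, rose by 1.17 and 1.05, DNAJC3, another one, by 1.17 and 1.02, and SSR3, of the translocon-associated protein complex, by 1.13 and 0.85 on the log2 scale. XBP1 mRNA, spliced and unspliced together, had log2 changes of −0.39 and −0.89. Both combinations were compared with the same bortezomib libraries. Of the 12 ATF6 targets on the list DERL3 did not enter the test.

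**Figure D4:**
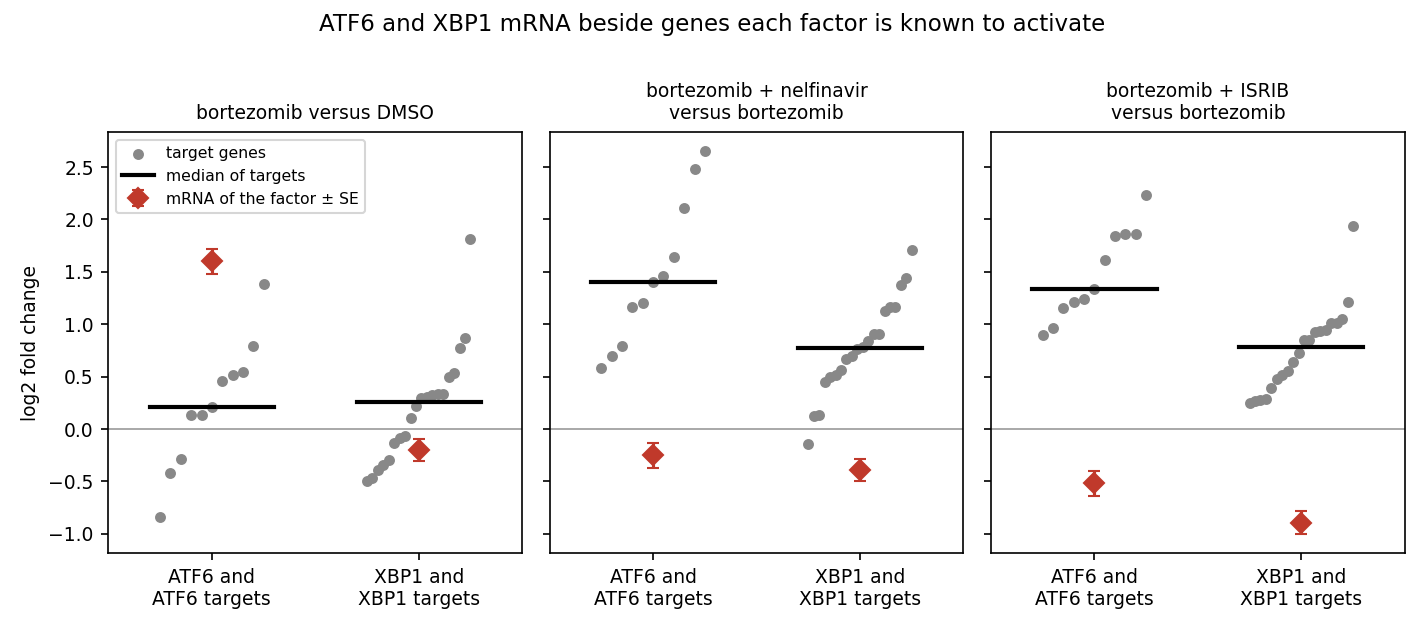
Log2 fold change (y axis) of ATF6 and XBP1 mRNA (red diamonds with SE) beside the 11 tested ATF6 targets and the 20 tested XBP1 targets (grey points in rank order, with a line at their median), in bortezomib against DMSO and in each combination against bortezomib. In both combinations all 11 ATF6 targets lie above 0 while the diamonds lie below 0, and in bortezomib against DMSO the median of the ATF6 targets is 0.21 with TMM and −0.29 with library totals alone.

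Of 13 tested partners of IRE1α, among them the XBP1 mRNA ligase RTCB, 4 rose and 2 fell with bortezomib, where library totals alone gave 1 and 10. The shares of all genes tested were 27.6% higher and 25.8% lower, so the number that rose is near the share of all genes. RTCB rose by 0.69 and TMBIM6, an ER membrane protein known to restrain IRE1α, by 0.96 on the log2 scale. With nelfinavir added to bortezomib 3 rose (SEC63, PDIA6 and TRAF2) and with ISRIB added 2 rose (SEC63 and PDIA6), with 0 falling in either. Among all genes tested 15.6% and 6.91% were called higher, and 13.4% and 5.34% lower. Transcripts known as substrates of regulated IRE1α-dependent decay did not move in 1 direction. Of 8 tested, 4 rose and 3 fell with bortezomib (1 and 4 with library totals alone), 0 rose and 1 fell with nelfinavir, 1 rose and 3 fell on adding nelfinavir to bortezomib, and 0 moved on adding ISRIB. Over all genes tested, these comparisons called 27.6%, 10.4%, 15.6% and 6.91% higher and 25.8%, 8.84%, 13.4% and 5.34% lower, in that order. BLOC1S1, the best known of them, fell by 0.95 with bortezomib and by 0.61 with added nelfinavir on the log2 scale. SCARA3 and COL6A1, also among those tested, had few counts. Summed over the 4 libraries, SCARA3 had 72 in DMSO and 3 in bortezomib. COL6A1 had 3 in DMSO, 20 in bortezomib and 62 with added nelfinavir.

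Other substrates and partners of the MBTPS1 and MBTPS2 proteases, which include the sterol-regulated factors SREBF1 and SREBF2, were also tested. Of 7 tested, 2 rose (SREBF1 and SREBF2, log2 changes 0.62 and 0.40) and 2 fell (GNPTAB, −1.28, and INSIG2, −0.73) with bortezomib, where library totals alone gave 0 and 4. These counts lie near the shares of all genes tested, 27.6% called higher and 25.8% lower. Nelfinavir alone lowered GNPTAB (−0.65). C12orf49, a regulator of the SREBP pathway, rose by 0.97 with added nelfinavir and by 0.65 with added ISRIB on the log2 scale, and CREB3L4, the remaining family member with a row, passed no test in any of the 8 comparisons.

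Of 12 genes listed as targets of CREB3 family factors 6 were tested, and HERPUD1, EDEM1 and SEC24D among them also stand on the ATF6 or XBP1 lists. With bortezomib 2 rose and 2 fell (1 and 3 with library totals alone), where 27.6% of all genes tested were called higher and 25.8% lower. The 2 that fell, APOA5 (log2 change −1.50, SE 0.15, adjusted p = 3.79e-10 by edgeR) and APOA4 (−0.89, SE 0.25, adjusted p = 0.00355 by edgeR), are lipoprotein genes known as targets of CREB3L3, which fell in the same comparison. Of the 12 hepatocyte and hepatoma markers, 6 were also called lower there and 0 higher. Their summed level was 16040 ± 806 CPM in DMSO and 11920 ± 273 CPM in bortezomib. Whether the falls of APOA5 and APOA4 are linked to that of CREB3L3 was not tested. With nelfinavir added to bortezomib 4 of the 6 rose (HERPUD1, SEC24D, EDEM1 and SEC23A) and 1 fell (median log2 change 0.93), and with ISRIB added 3 rose (HERPUD1, SEC24D and EDEM1) and 0 fell (median log2 change 0.86). Of all genes tested, 15.6% were called higher and 13.4% lower with nelfinavir added, and 6.91% and 5.34% with ISRIB added. CREB3L3 rose with added nelfinavir, and the gene that fell was APOA5 (log2 change −1.30, SE 0.18, adjusted p = 1.83e-06 by edgeR) while APOA4 did not pass (−0.34). The summed hepatocyte markers were at 11920 ± 273 CPM in bortezomib and 8965 ± 790 CPM with added nelfinavir, with no overlap (two-sided exact permutation p = 0.0286, the smallest that 4 libraries against 4 can give, and 0.0572 after adjustment over 6 comparisons), and their part in the fall of APOA5 was not tested.

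PERK, encoded by EIF2AK3, is the remaining ER stress sensor and stands for comparison with the PERK branch genes. EIF2AK3 was at 15.3 ± 1.33 CPM in DMSO, 32.2 ± 3.72 in bortezomib, 80.9 ± 16.6 with added nelfinavir and 65.2 ± 14.1 CPM with added ISRIB. It rose against bortezomib in both combinations, by 1.33 (SE 0.14, adjusted p = 1.27e-08 by edgeR) and 1.02 (SE 0.14, adjusted p = 5.30e-06 by edgeR) on the log2 scale, where ERN1 had log2 changes of 0.16 and −0.67 and ATF6 of −0.25 and −0.52. Of 8 tested genes of the PERK branch, EIF2AK3 among them, 8 rose with bortezomib and 8 again with added nelfinavir. With added ISRIB 1 rose, which was EIF2AK3 itself, and 4 fell. In these comparisons 27.6%, 15.6% and 6.91% of all genes tested were called higher and 25.8%, 13.4% and 5.34% lower.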

How the data were processed

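RNA was measured by QuantSeq 3′ mRNA sequencing (FWD) in 24 HepG2 libraries, in 1 sequencing pool. Per the labels and the study's methods, the authors trimmed reads with cutadapt 2.8, aligned them with STAR to hg19 within an nf-core pipeline, counted reads over Ensembl GRCh37 protein coding, lincRNA and antisense genes, and deposited the raw counts. The counting tool and whether it used strand or molecular identifiers is not given in the sources used here. No column of another series was present (0).

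From the counts, edgeR 4.0.16 (R 4.3.3, limma 3.58.1) filtered genes (filterByExpr, minimum count 5, minimum total 25), scaled by TMM and fitted 1 quasi-likelihood model of 6 conditions over all 24 libraries, with 8 comparisons. CPM is the count per library total scaled by TMM. All tests are two-sided, and p was adjusted over all 12685 genes tested at 0.05. DESeq2 1.42.0, other scalings and filters, a replicate block and leaving out each library were the alternatives. Each member is named in each comparison. Of each list the up to 4 called genes with the smallest p per comparison could be named, and the other genes were named after their values were seen. Likeness is Pearson's r of log2 CPM (prior count 2). The members and lists were chosen with earlier results of these data known.

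No pair of libraries of a condition agreed within sampling noise (lowest chi-square per degree of freedom 2.19). The floor given for CREB3L1 covers counting error only, whereas the SDs and SEs include the spread between libraries. The labels call the libraries biological replicates without saying whether they are separate cultures, so p-values measure the spread between these libraries. Promoters and the XBP1 sequence were read with Python 3.11.15 from RefSeq and the GRCh37 genome.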

Additional observations from a re-analysis of the deposited data

Results flagged for a closer look

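In 5 of the 54 sets of 4 libraries (9 members in 6 conditions) the highest or lowest library stood apart from the other 3 by Dixon's criterion, which chance alone meets in about 1 in 20 sets. ERN1 was at 41.7 CPM in bortezomib replicate 4, where the nearest library was at 30.3 CPM. XBP1 was at 64.9 CPM in replicate 4 of bortezomib with nelfinavir (nearest 73.5 CPM), and ATF6 was at 70.1 CPM in replicate 3 of that condition (nearest 86.1 CPM). ATF6B was at 4.04 CPM in ISRIB replicate 1 (nearest 5.18 CPM), and MBTPS1 was at 114 CPM in replicate 3 of bortezomib with ISRIB (nearest 91.7 CPM). Leaving out bortezomib replicate 4 ended the call of ERN1 between bortezomib with ISRIB and bortezomib (adjusted p = 0.0875 by edgeR), and leaving out replicate 3 of bortezomib with nelfinavir brought ATF6 over the threshold between the combinations (adjusted p = 0.0321 by edgeR).

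The change on adding a drug differed between the absence and the presence of bortezomib in 9 tests of the members by edgeR's interaction term. With nelfinavir the log2 interaction was −0.98 for ERN1, −0.44 for XBP1, −0.48 for ATF6, −0.69 for MBTPS2, −0.71 for CREB3, 1.32 for CREB3L2 and 0.85 for CREB3L3. With ISRIB it was −0.84 for XBP1 and 1.18 for CREB3L2.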

How the results depend on the processing

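Of 1368 recomputed changes of the members, 1290 kept their direction and side of the threshold, 63 lost and 15 gained the call, and 0 reversed. Of the 7 members with a nelfinavir interaction 4 passed with no filter on low counts and between 4 and 6 when any 1 library was left out, and ISRIB alone gave 1 call (CREB3L2, log2 change −0.31) instead of 0 with only the groups compared. The cause was not tested. With any 1 library left out, between 7 and 8 members were called for bortezomib, 3 and 4 for nelfinavir, 4 and 5 for bortezomib with nelfinavir and 3 and 4 for bortezomib with ISRIB against bortezomib, and 3 and 4 between the combinations. Over all genes, with only the groups compared, the calls were 1925 higher and 1948 lower for nelfinavir (1320 and 1121 in the model of all libraries), 1284 and 962 for nelfinavir added to bortezomib (1975 and 1694), 510 and 357 for ISRIB added to bortezomib (876 and 677), 985 and 755 between the combinations (1669 and 1429), and 4 and 76 for ISRIB, for which no filter gave 5 and 34 and DESeq2 0 and 3. Between conditions, 10 of 60 pairs of libraries with the same replicate number had deviations correlated above 0.1, against 7 of 180 with other numbers. The share was higher for the same number, but whether replicate numbers pair the libraries was not tested, and the main model has no replicate term. With a replicate block 6 members passed the nelfinavir interaction, without MBTPS2 (adjusted p = 0.0532 by edgeR), and no other call of a member changed. Depth limits ATF6B, with 28 to 83 counts per library, and CREB3L1 most.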
